A study of Rattus norvegicus with 2 samples.

Results

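Autotaxin is a secreted enzyme that cuts the head group from lysophosphatidylcholine and so makes lysophosphatidate (LPA) outside the cell. LPA and the related lipid sphingosine 1-phosphate (S1P) act on G protein-coupled receptors at the cell surface, through which they influence the cytoskeleton, migration and growth, and S1P is made inside cells by the sphingosine kinases. In the brain, autotaxin is known from oligodendrocytes and the choroid plexus, and serum, which is part of the culture medium used here, contains both lipids. The 10 genes described are those for autotaxin (Enpp2), for the LPA receptors Lpar1, Lpar2, Lpar3, Lpar4 and Lpar6, for the S1P receptors S1pr1, S1pr2 and S1pr3, and for sphingosine kinase 1 (Sphk1). They were selected by gene symbol with their signals and differences in these arrays already known, so that all values are a description. Each gene is read by 1 transcript cluster, a group of probes for 1 transcript unit, out of the 23188 clusters on the array.

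The data compare C6, an established rat glioma line with intact tafazzin, with C6 TAZ, the same line after knock-out of the cardiolipin acyltransferase tafazzin by CRISPR-Cas9. Both were kept in DMEM with 3% foetal bovine serum and antibiotics. RNA of 3 cultures was pooled per genotype and each pool was hybridised to 1 Clariom S rat array, which leaves no replicate, no test and no measured error for any difference. The sources used here do not say whether C6 TAZ is 1 clone, so that in these arrays a property of one clone and an effect of the knock-out cannot be told apart. The study also put tafazzin back into C6 TAZ cells and measured selected genes by PCR, none of them described here. The values are the authors' log2 signals, and a log2 difference (C6 TAZ minus C6) of 1 is a doubling. The deposited data name the arrays in opposite ways in a workbook and in a table per sample. Their values were equal in 100% of the clusters once the columns of the latter were exchanged, and in 1.16% as named. The workbook's names were used, and with the other names every sign turns, that of Enpp2 included. The targeted gene itself (Taz) gave log2 signals of 10.34 (C6) and 9.84 (C6 TAZ). Where its probes lie relative to the edited stretch is not known here, so that these signals do not check the genotype. Of the glioma and glial markers, Vim (18.72 and 18.77) and S100b (9.82 and 10.40) were bright in both arrays, whereas the astrocyte transporter gene Slc1a3 (3.91 and 4.67) was not.

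Detection calls were not used here, and the probes of different genes differ in brightness, so that signals are not ranked between genes. As a landmark for low signals, the 1416 clusters of olfactory and vomeronasal receptors, genes of the nose, showed median log2 signals of 4.49 (C6) and 4.47 (C6 TAZ). Their 95th percentile was 5.87 in C6 and 5.97 in C6 TAZ. Of the 10 genes, 4 lay above this landmark in both arrays (Lpar1, Lpar6, S1pr2 and Sphk1) and 5 in neither (Lpar2, Lpar3, Lpar4, S1pr1 and S1pr3). Enpp2 alone lay above it in C6 TAZ but not in C6.

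**Figure D1:**
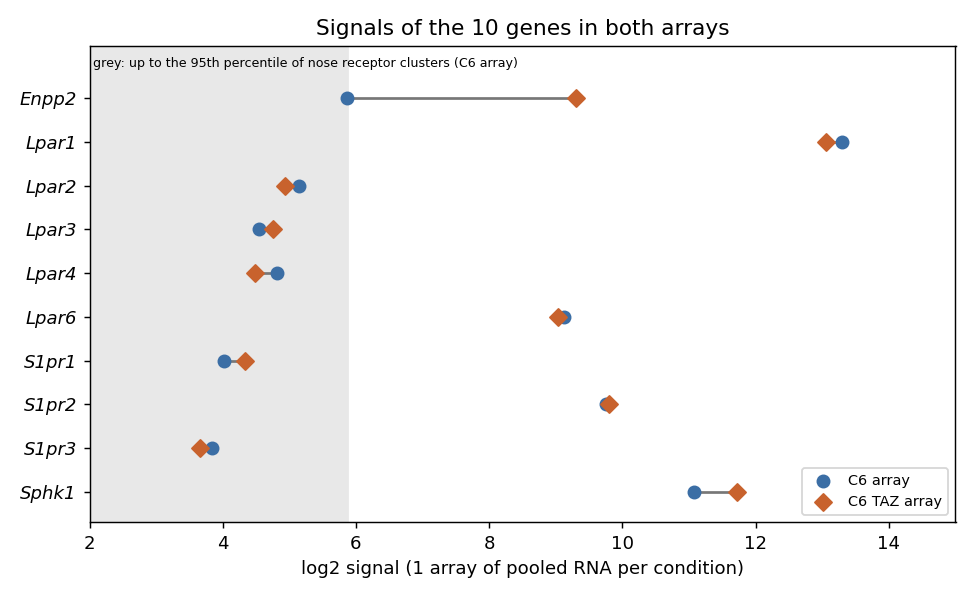
Log2 signal of each of the 10 genes in the C6 array (circles) and in the C6 TAZ array (diamonds), with the grey zone ending at the 95th percentile of the nose receptor clusters in C6 (5.87). Enpp2 runs from 5.86 to 9.31, while the symbols of the 8 receptors lie at most 0.34 apart.

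The Enpp2 signal was 10.9-fold higher in C6 TAZ, and taken over the landmark in C6, below which its own C6 signal lay, it was 10.8-fold higher. With a C6 signal of that size the true fold is not known. The Sphk1 signal was 1.57-fold higher. The 3 receptor genes above the landmark in both arrays (Lpar1, Lpar6 and S1pr2) differed by less than 1.5-fold. So did the other 5, but their signals were those of the nose receptors, and little can be read from them. By 2-fold or more, 1 of the 10 genes was higher, against 2.34% of all clusters, and 0 were lower, against 2.10% of all clusters. At 1.5-fold, 2 were higher and 0 lower, where 9.87% of all clusters were higher and 9.05% lower. The remaining 8 of 10 were within 1.5-fold, as were 81.1% of all clusters. Since the genes were selected with these differences known, nothing is read from these shares. The median log2 difference of the 10 genes was −0.02, beside 0.00 over all clusters, with 5 genes on either side of zero.

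Enpp2 encodes autotaxin, the main source of extracellular LPA. Its cluster (TC0700003141.rn.2) read 5.86 in wild-type C6 and 9.31 in C6 TAZ on the log2 scale, which makes a log2 difference of 3.45. In C6 the gene thus lay just below the 95th percentile of the nose receptor signals (5.87), whose highest value there was 9.03. In C6 TAZ it lay just above their highest value, 9.14. As a description of the deposited signals only, 99.97% of all 23188 clusters differed less. Its mean log2 signal over both arrays falls between 7 and 9, where the central 95% of 2865 clusters had differences from −1.01 to 1.22. Over the 2 arrays, the protein-coding genes with the most similar pair of log2 signals were Art3 (6.16 and 8.96, distance 0.46), Adh7 (6.42 and 9.63, distance 0.65) and Fosb (6.56 and 8.86, distance 0.83), by Euclidean distance. Such likeness rests on a pair of values from different probes, and says nothing of how the levels of these genes compare.

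**Figure D2:**
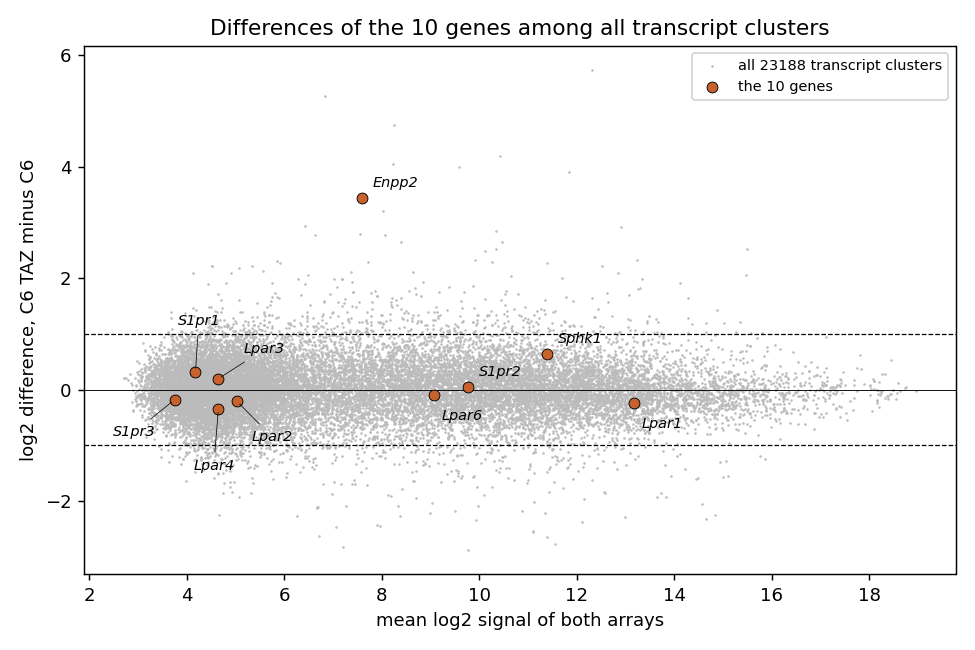
Log2 difference of C6 TAZ minus C6 against the mean log2 signal of both arrays, for all 23188 transcript clusters (grey) and the 10 genes (orange), with dashed lines at 2-fold. Enpp2 lies apart from the main cloud at 3.45, Sphk1 at 0.65 lies inside the dashed lines, and the receptors are near zero.

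The receptors for LPA fall into a pair of families, the EDG family with LPA1, LPA2 and LPA3, and a group related to purinergic receptors with LPA4 and LPA6. Lpar1, the most widely expressed LPA receptor gene in the nervous system, gave log2 signals of 13.30 (C6) and 13.06 (C6 TAZ), which is a difference of −0.24, or 1.18-fold lower. Of all clusters, 42.7% had a smaller difference. Lpar1 was therefore bright in both arrays and close to the middle of the differences. Lpar6, whose human counterpart is known from inherited hair loss, gave 9.12 and 9.03 in the same order, a log2 difference of −0.09. It was the other LPA receptor gene above the nose receptor landmark in both arrays.

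The remaining LPA receptor genes gave signals like those of the nose receptors. On the log2 scale Lpar2 read 5.14 in wild-type C6 and 4.93 in C6 TAZ (difference −0.21). Lpar3, for a receptor that prefers LPA with unsaturated acyl chains, had 4.55 and 4.75 (log2 difference 0.20). Lpar4 had 4.82 and 4.48, and its log2 difference of −0.34 was the largest of any receptor in the set. In this range of low signals, with a mean under 5, the central 95% of 7534 clusters ran from −0.88 to 0.85. With a mean from 5 to 7, where Lpar2 lies, they ran from −0.97 to 1.00. The differences of these 3 genes lay well inside those ranges. At signals of this size a low level and no expression cannot be told apart.

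Among the S1P receptors, 1 gene was clearly above the landmark. S1pr2, whose product couples to the G proteins that activate RhoA, gave log2 signals of 9.75 (C6) and 9.80 (C6 TAZ), with a difference of 0.05 or 1.04-fold. This was the smallest difference among the 10 genes, and 8.98% of all clusters differed less. With a mean signal from 9 to 11, where S1pr2 and Lpar6 lie, the central 95% of 3201 clusters ran from −0.95 to 1.08. S1pr1, the Gi-coupled receptor known from lymphocyte egress and endothelium, had low log2 signals of 4.02 and 4.34 (log2 difference 0.32). S1pr3 had 3.84 and 3.66 (log2 difference −0.18). Over all 8 receptor genes, 3 were higher and 5 lower in C6 TAZ by any amount, with a median log2 difference of −0.14.

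Sphk1 encodes the kinase that phosphorylates sphingosine to S1P. On the log2 scale it read 11.07 in wild-type C6 and 11.72 in C6 TAZ, which makes a difference of 0.65. This was the largest of the 10 differences after that of Enpp2, and 84.5% of all clusters differed less. For clusters with a mean of 11 or more, the central 95% of differences ran from −0.94 to 0.92, so that Sphk1 lay inside it. Its relative Sphk2 had log2 signals of 10.61 and 10.97 (log2 difference 0.36).

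The study examined the promoters of changed genes over longer windows and with binding profiles. Here, windows of the 10 genes were read for the letters of the short AP-1 motif TGANTCA on both strands. The counts are therefore not comparable with those of the study. RefSeq windows of the GRCr8 assembly, which run from 250 bases before to 50 after a transcript start, were matched by symbol for 7 of the 10 genes, in 9 windows. Enpp2, Lpar1 and Lpar2 had none. The motif was present in 1 of the 9 windows, against 7.33% of all 33469 windows. It belongs to one of 3 annotated starts of Sphk1, shown here because Sphk1 had the largest difference of the genes with a window. The EGR motif GCGNGGGCG was present in 0 of the 9, against 4.98% of all. The window lies at chr10:102258004-102258303 on the plus strand, and capitals mark the AP-1 match, which begins 43 bases downstream of the start.
Sphk1: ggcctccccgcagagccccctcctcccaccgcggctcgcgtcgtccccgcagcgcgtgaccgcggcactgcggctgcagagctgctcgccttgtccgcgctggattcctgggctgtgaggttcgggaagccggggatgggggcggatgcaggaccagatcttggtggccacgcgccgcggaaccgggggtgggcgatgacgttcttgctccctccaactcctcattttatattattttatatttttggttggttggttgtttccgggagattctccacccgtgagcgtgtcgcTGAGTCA

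This is a match of letters only and not a measured site. The array does not tell which of the 3 starts is used in these cells.

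The enzymes around autotaxin and Sphk1 were described from lists of 63 further genes in 6 groups, also written with earlier results in view. Of the 63, 2 were higher by 2-fold or more in C6 TAZ and 0 were lower, against 2.34% and 2.10% of all clusters. These shares are the background for each of the 6 lists as well, and nothing is read from the counts. The 2 higher genes are Enpp5, a relative of autotaxin, and Sgpl1, the lyase that breaks S1P down irreversibly.

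Of 6 other genes of the ENPP family, 1 was higher and 0 were lower by 2-fold or more (median log2 difference −0.17). Enpp5 gave log2 signals of 11.85 (C6) and 13.42 (C6 TAZ), a difference of 1.57 or 2.97-fold. Enpp1, which makes pyrophosphate from ATP, went the other way with 16.61 and 15.73 (−0.88), and so did Enpp3 with 10.77 and 9.95 (−0.82). The family therefore showed no common direction, and the difference of Enpp2 was not shared by its relatives at that size. Of 5 genes for other routes to LPA, 0 passed 2-fold (median 0.27). The farthest were Lipi, for a phospholipase that acts on phosphatidate, at low log2 signals of 4.28 and 4.94 (0.66), and the acylglycerol kinase gene Agk with 9.48 and 8.84 (−0.64).

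LPA is removed by lipid phosphate phosphatases, which take off its phosphate, and by acyltransferases, which turn it into phosphatidate. Of 9 such genes 0 passed 2-fold, the median log2 difference was −0.23, and all 9 lay above the nose receptor landmark in both arrays. Plpp1, one of the phosphatase genes, was the farthest, at 15.59 (C6) and 14.64 (C6 TAZ) on the log2 scale, a difference of −0.95 or 1.93-fold lower. Plpp2 (14.14 and 14.05) and Plpp3 (7.52 and 7.80) differed less. Agpat5 was the farthest upward, with 8.59 and 9.03 (0.44).

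Of 13 further genes of S1P synthesis, turnover and transport, 1 was higher by 2-fold or more and 0 were lower (median −0.09). Sgpl1 gave log2 signals of 11.29 (C6) and 12.43 (C6 TAZ), a difference of 1.14 or 2.20-fold. At 1.5-fold, 2 more were higher and 0 lower, where 9.87% of all clusters were higher and 9.05% lower. The 2 were Asah1, the acid ceramidase of the lysosome that supplies sphingosine, with 12.46 and 13.38 (0.92), and Acer2, an alkaline ceramidase, with 5.32 and 6.20 (0.88). Both were picked for mention once their values were known, and Acer2 lay above the landmark in C6 TAZ only. Acer3, for another ceramidase, lay above the landmark in both arrays, with 11.10 and 11.32 (0.22). Acer1 and Asah2, for other ceramidases, were both at −0.55, but lay below the landmark in both arrays, so that little can be read from them. Spns2, the gene of an S1P exporter, had low log2 signals of 3.95 and 3.53.

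**Figure D3:**
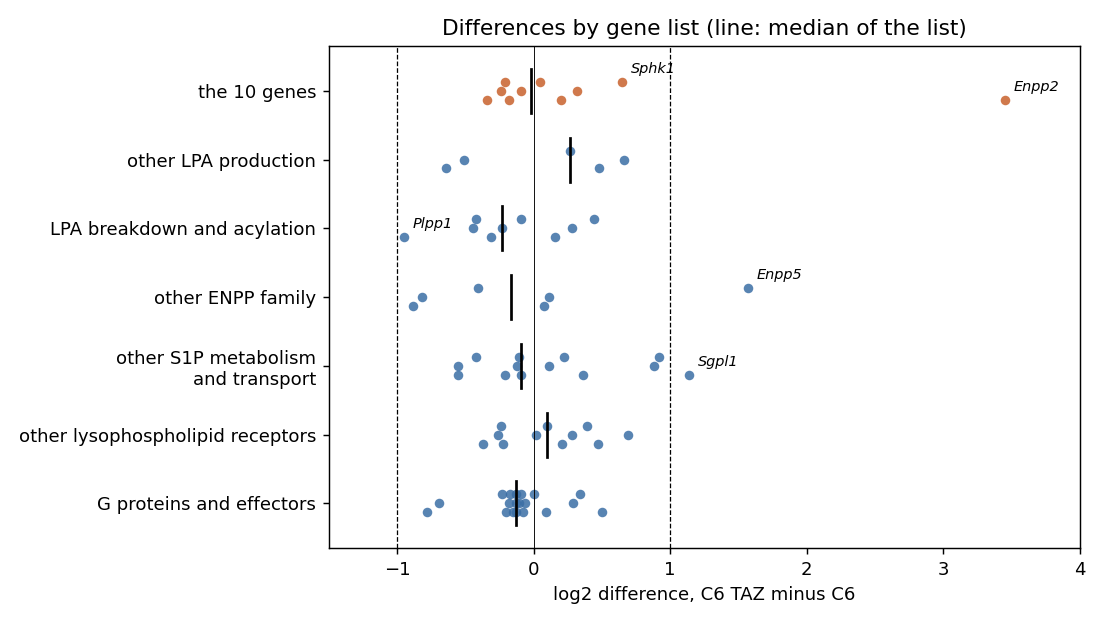
Log2 differences of C6 TAZ minus C6 for the 10 genes (orange) and for 6 lists of related genes (blue), 1 point per gene, with the median of each list as a black line and dashed lines at 2-fold. Enpp2 (3.45), Enpp5 (1.57) and Sgpl1 (1.14) are the points beyond 2-fold, and Plpp1 (−0.95) is the lowest.

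Of 11 other receptors for lysophospholipids and related lipids, 0 passed 2-fold (median 0.10) and 10 lay at or below the landmark in both arrays. Among them, Lpar5 had log2 signals of 3.78 and 3.80, S1pr4 5.35 and 5.13, and S1pr5, known from oligodendrocytes, 4.94 and 4.70. The farthest downward was Gpr132 at 4.18 and 3.81 (−0.37). Of all receptor genes read here, those above the landmark in both arrays were thus Lpar1, Lpar6 and S1pr2. Of 19 genes for G proteins, their effectors and receptor regulators, 0 passed 2-fold either (median −0.13). Gna13, whose product links these receptors to RhoA, was the farthest upward with 11.85 and 12.35 (0.50). Plcb1, a phospholipase C downstream of Gq, was the farthest downward with 11.19 and 10.41 (−0.78).

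Markers of the cells in which autotaxin is abundant did not move with Enpp2 as a group, by their mean log2 signals. By 2-fold or more, 2.34% of all clusters were higher and 2.10% lower. These shares are the background for each marker list, and nothing is read from the counts. Of 10 oligodendrocyte genes 0 passed 2-fold (median log2 difference 0.26), and their mean log2 signal was 6.87 in C6 and 6.92 in C6 TAZ. The lineage factor Sox10 was bright in both arrays (12.80 and 13.10), and 6 of the 10 lay below the landmark in both, among them Mbp (3.19 and 3.63) and Mag (4.47 and 4.84). Of 7 choroid plexus genes, 2 were lower by at least 2-fold and 0 higher, namely Ttr (8.11 and 7.07) and Aqp1 (10.30 and 8.66). The other 5 lay at or below the landmark in both arrays. The mean log2 signal of all 7 was 5.86 in C6 and 5.28 in C6 TAZ. Among 6 endothelial genes 1 was lower (Tek, −1.47) and 0 were higher, at mean log2 signals of 5.78 and 5.25. None of 6 genes of microglia (4.58 and 4.49) or of 6 genes of fibroblasts (7.65 and 7.67) passed 2-fold. The part of other cell types in the difference of Enpp2 was not tested, and in bulk RNA fewer cells of a type and less RNA per cell cannot be told apart.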

How the data were processed

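Pooled RNA of 3 cultures per genotype had been hybridised to 1 Clariom S rat array each. The deposited values are log2 signals of transcript clusters, linked in the submitters' processing notes to Affymetrix Expression Console, with the rn6 annotation. Summarization and normalization are not given in the sources used here, and could shift all signals of an array. The authors' fold changes were not used, nor was their sheet of picked clusters. The analysis of variance of the methods cannot be run with 1 array per condition.

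Log2 differences were taken from the deposited log2 signals to 2 decimals, and a fold threshold was met at 2-fold or 1.5-fold exactly or more. A single gene symbol was attached to 21502 clusters, more than 1 to 1673, and none to 13. Clusters with only the gene's symbol were read (shared ones where it had no other), and averaged if there was more than 1. All 10 symbols were found in RefSeq's GRCr8 gene table, used for names only. Counting was tested on simulated data. Python 3.11.15, pandas 2.3.3, NumPy 2.4.6 and matplotlib 3.10.9 were used.

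The members, lists and alternatives were chosen with earlier results of these data known. Named are all 10 members, genes past 2-fold or farthest in each direction in the 6 related lists, up to 3 markers per cell type, the targeted gene, and the 3 genes nearest to Enpp2 among protein-coding clusters with 1 proper symbol. Further genes, such as Plpp2, Enpp3, Lpar5 and Sphk2, were added for their roles after their values were seen. A gene that this rule names in the list of other receptors is not reported here.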

Additional observations from a re-analysis of the deposited data

How the results depend on the processing

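With 1 array per condition, the spread between cultures is not measured, precision is limited by the number of arrays, and no setting can supply a test. With the column names of the per-sample table, 0 genes were higher and 1 was lower by 2-fold or more, Enpp2 had a log2 difference of −3.45, and the median was 0.02. At 1.5-fold, 2 genes were higher and 0 lower. The median of the 10 genes, −0.02 as deposited, was −0.03 with equal medians of all clusters, −0.05 with quantile normalization and −0.01 with equal means of 105 ribosomal protein clusters. When a log2 signal of 6 or more was required in one array, or of the mean of both, 5 genes were left and their median was 0.05. Enpp2 passed these filters only through its signal in C6 TAZ, so that they do not bear on its difference. The mean of the 10 genes was 0.36. Taking the brightest cluster per gene could change nothing, since each gene has 1. Under the 3 scalings, no member's difference moved by more than 0.04 or changed its sign, and 1 gene stayed higher and 0 lower by 2-fold or more. Signals near those of the nose receptors limit what can be said of Lpar2, Lpar3, Lpar4, S1pr1 and S1pr3, and of the fold of Enpp2 over C6.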
